A study of Homo sapiens with 12 samples.

Results

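Cells of HCT116, a human line established from a colorectal carcinoma, were exposed to 100 nM dolastatin 15 for 16 h, and their polyadenylated RNA was set against that of cells given solvent for the same time. The comparison rests on 4 of the 12 libraries of the series, chosen by dose and time in the column names of the deposited table: 2 with 100 nM for 16 h (libraries 3 and 4) and 2 with solvent for 16 h (libraries 5 and 6). The solvent was DMSO at 0.25%, which the treated wells also held, and all wells had medium with 5% serum. The other groups, with 2 libraries each, received 20 nM for 16 h (libraries 1 and 2), 20 nM for 24 h (libraries 7 and 8), 100 nM for 24 h (libraries 9 and 10) and solvent for 24 h (libraries 11 and 12). The labels call the treatments duplicates without saying whether they were separate cultures. The p-values therefore measure only the spread between libraries of the same group, which may be technical. That spread was estimated per gene from all 12 libraries in 6 groups, not from the 4 alone. A single line was used, so the values describe HCT116 cells, and in RNA from a whole well a smaller share of cells in a phase and less RNA per cell cannot be told apart. All levels are FPKM (fragments per kilobase of transcript, scaled to the depth of the library), and log2 changes are those of log2(FPKM + 1), 100 nM minus solvent.

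Dolastatin 15 is a peptide from marine organisms that binds tubulin and blocks the assembly of microtubules, the polymers from which the mitotic spindle is built. Cells whose chromosomes lack proper spindle attachment are held in mitosis by the spindle assembly checkpoint, which restrains the anaphase-promoting complex (APC/C), the ubiquitin ligase that marks cyclin B and securin for destruction. Cells also read the pool of unpolymerised tubulin: free dimers trigger the decay of tubulin mRNAs on the ribosome, through recognition of the first residues of the nascent tubulin chain. Disassembling microtubules release activators of RHOA, a small GTPase that acts on actin and on genes of serum response factor (SRF).

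The 4 libraries held 28600000 to 33900000 fragments, and all 12 held 28600000 to 42000000 fragments, a depth recovered from the steps of low FPKM values. Pearson correlations of log2 values across genes were 0.992 between the libraries of each group and 0.985 to 0.986 between groups, where genes are not independent replicates. Mitochondrially encoded genes held 22.2% and 24.5% of the FPKM sum with 100 nM, and 21.7% and 22.2% with solvent. Of these, the single gene MT-ATP8 held 9.77% and 11.25% of the sum with 100 nM, and 10.12% and 10.05% with solvent. The summed level of 7 epithelial markers was 1463 to 1471 FPKM with 100 nM and 1333 to 1395 FPKM with solvent. Of 4 intestinal markers only CDX2 exceeded 1 FPKM in these libraries, at 16.4 and 14.9 FPKM with 100 nM and 11.9 and 13.6 FPKM with solvent. Markers of fibroblasts (1.46 to 2.47 FPKM in sum with 100 nM, 3.41 to 3.87 with solvent), endothelium (0.05 to 0.09 and 0.09 to 0.1) and nerve (4.16 to 4.25 and 4.34 to 4.62) were low, and of 4 leukocyte markers only CD68, a lysosomal protein, exceeded 1 FPKM. CD68 rose, with 10.6 and 10.45 FPKM with 100 nM and 7.55 and 7.04 FPKM with solvent, and the leukocyte markers summed to 10.85 to 11.5 FPKM with 100 nM and 7.67 to 8.11 FPKM with solvent; PTPRC, the pan-leukocyte marker CD45, was at most 0.02 FPKM in any library. The part of other cell types in the results was not tested. Of the 499 called list members and other named genes, 69 share at least 100 exonic bases with another tested gene of at least 10% of their level, and reads of such pairs are assigned with some uncertainty because the strand setting of the counting is not given. Among genes named below these are DBF4, KIF2A, SREBF1, TCF7, KIF20A, CENPA, NUP153, PKMYT1, TUBA4A, BORA, CENPO, PHLDA1, CCDC150, CCNA2, TAGLN, CENPU, ANAPC10, TUBA1A, DDIT3, CCNE2, TUBB6, CDC26, SMG1P3, SLC7A5P2, PITPNB, AC126755.2 and P2RY11.

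Of 13458 genes tested, 3205 passed the test at 100 nM, which is 23.8% of those tested: 1233 were higher (9.16%) and 1972 were lower (14.7%). Both 100 nM libraries lay above both solvent libraries in 26.6% of tested genes and below both in 36% of them. Separate groups, where mentioned below, are therefore common and come from the same values as the calls. Most changes were small: the median log2 change was 0.295 among genes that rose and -0.39 among genes that fell, and 33 genes rose and 90 fell by at least 1 on the log2 scale. Over all tested genes the median was -0.028. By annotation, 1139 of 11660 protein-coding genes rose and 1839 fell, 49 of 1076 long noncoding genes rose and 88 fell, and 36 of 569 pseudogenes rose and 31 fell. The split depended on scaling: 911 genes rose and 2378 fell when libraries were rescaled to a common sum, and 1601 rose and 1689 fell under median-of-ratios scaling. Leaving out 1 library of the 4 gave 1781 to 2007 called genes (2007 without library 3, 1910 without 4, 1781 without 5 and 1855 without 6), and a fit of the 4 libraries alone gave 1620.

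**Figure D1:**
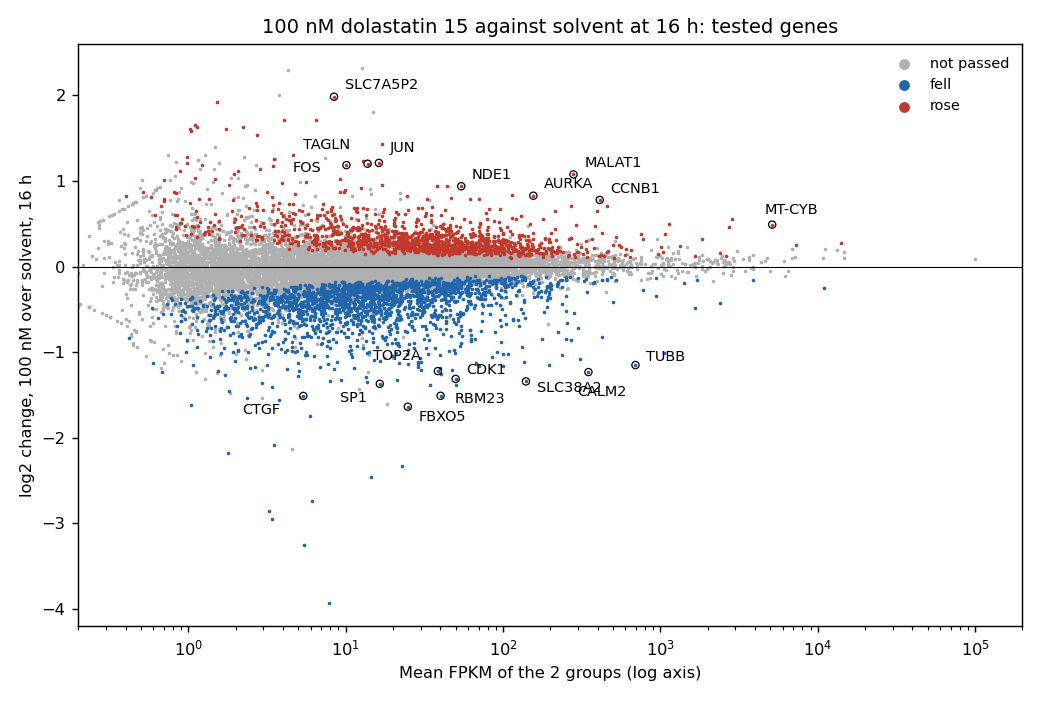
Log2 change (100 nM over solvent at 16 h, vertical axis) against the mean FPKM of both groups (horizontal log axis) for 13395 tested genes, with 63 others outside the axes. Red points rose, blue points fell and grey points did not pass the test; JUN, NDE1, AURKA and CCNB1 stand above 0, and FBXO5, RBM23, CDK1 and TUBB stand below -1.

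Most tubulin genes fell, with exceptions on the beta side. Of 12 tested alpha- and beta-tubulins 7 fell, 2 rose and 3 did not pass, with a median log2 change of -0.22, where 9.16% of all tested genes rose and 14.7% fell. Of the 7 decreases 5 were called whichever library was left out. Microtubules are chains of alpha- and beta-tubulin dimers, and the proteins of the family begin with methionine, arginine, glutamate and then isoleucine (beta) or cysteine (alpha). The first 12 coding bases are shown because this stretch encodes those residues in genes that moved both ways, read from GENCODE 29 transcripts on GRCh38, with the codons after the start codon in capitals:
TUBB (chromosome 6, fell): atgAGGGAAATC
TUBB4B (chromosome 9, fell): atgAGGGAAATC
TUBB3 (chromosome 16, fell): atgAGGGAGATC
TUBB6 (chromosome 18, rose): atgAGGGAGATC
TUBB2A (chromosome 6, rose): atgCGCGAGATC
TUBA1B (chromosome 12, fell): atgCGTGAGTGC
TUBA1C (chromosome 12, fell): atgCGTGAGTGC
TUBA4A (chromosome 2, fell): atgCGTGAATGC
TUBB3 and TUBB6 have the same 12 bases and moved in opposite directions. In GENCODE, 20 protein-coding genes begin with such a stretch, and 13 were tested. The 1 that is no tubulin, MBTPS1, encodes a protease of the Golgi and fell slightly. It had 55.4 and 56.7 FPKM with 100 nM and 61.7 and 60.6 FPKM with solvent (log2 change -0.12, SE 0.04, adjusted p = 0.0487).

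TUBB, the most changed beta-tubulin, had 428 and 434 FPKM with 100 nM, against 972 and 943 FPKM with solvent (log2 change -1.15, SE 0.04, adjusted p = 6.87e-07). The alpha-tubulin TUBA1C had 708 and 699.8 FPKM with 100 nM and 1401 and 1425 FPKM with solvent (log2 change -1.004), and its near-identical relative TUBA1B had 1387 and 1383 FPKM with 100 nM and 1959.6 and 1929.9 FPKM with solvent (log2 change -0.49). In these 3 genes the groups lay far apart and the libraries of a group within a few percent of each other. TUBB3, the class of beta-tubulin known from neurons, stood at 155 and 151 FPKM with 100 nM and 200.4 and 192 FPKM with solvent (log2 change -0.36, SE 0.06, adjusted p = 0.00242). TUBB4B had 708 and 702 FPKM with 100 nM and 868 and 834 FPKM with solvent (log2 change -0.27, SE 0.05, adjusted p = 0.00617). The smaller decreases of TUBA4A (-0.296) and TUBA1A (-0.17) lost their call when any one library was left out (adjusted p = 0.0595 to 0.109 and 0.0817 to 0.186), and the exons of TUBA1A overlap those of TUBA1C. On the other side, TUBB6 had 192 and 201 FPKM with 100 nM and 171 and 167 FPKM with solvent (log2 change 0.21, SE 0.03, adjusted p = 0.00251), and shares 837 exonic bases with AFG3L2 on the opposite strand. TUBB2A had 125 and 124 FPKM with 100 nM and 109 and 103 FPKM with solvent (log2 change 0.23, SE 0.05, adjusted p = 0.00849), a call lost without library 6 (adjusted p = 0.0617). How reads were shared out among tubulin genes of near-identical sequence is uncertain.

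Genes that fold, nucleate or bind tubulin had smaller shares of called genes than the tubulins (14.3% in the decay and folding list, 36.4% in the gamma-tubulin ring and 32% of microtubule-associated proteins). Of 14 tested genes of tubulin mRNA decay and folding, 2 rose and none fell, where 9.16% of all tested genes rose and 14.7% fell; 1 rose without library 3, 4 or 5, and 1 fell without library 3. PFDN2, a prefoldin subunit that hands unfolded tubulin to the TRiC chaperonin, had 399 and 414 FPKM with 100 nM and 321 and 328 FPKM with solvent (log2 change 0.32, SE 0.05, adjusted p = 0.00248). TTC5, which recognises the nascent tubulin chain and starts the decay of its mRNA, was at 19.5 and 14.8 FPKM with 100 nM and at 23.5 and 20.8 FPKM with solvent and did not pass (adjusted p = 0.0593). Of 11 genes of the gamma-tubulin ring, from which microtubules grow, 1 rose and 3 fell. TUBGCP6, a ring subunit, had 8.22 and 9.46 FPKM with 100 nM and 15.8 and 13.7 FPKM with solvent (log2 change -0.68, SE 0.09, adjusted p = 0.000818). By contrast, MZT1, a small ring protein, had 15.1 and 13.9 FPKM with 100 nM and 10.8 and 9.96 FPKM with solvent (log2 change 0.44, SE 0.07, adjusted p = 0.00225). For both genes the groups were separate, in opposite directions.

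Dynein, the motor that walks toward microtubule minus ends, had 5 of 21 tested subunits and cofactors higher and 1 lower, and 3 higher with 1 library left out (none lower without library 5). NDE1, a dynein regulator needed at kinetochores and centrosomes, had 68.1 and 75.1 FPKM with 100 nM and 36.9 and 36.8 FPKM with solvent (log2 change 0.94, SE 0.05, adjusted p = 9.6e-06), with both treated libraries near 2 times the solvent level. DYNLL1, a dynein light chain, had 585 and 579 FPKM with 100 nM and 465 and 448 FPKM with solvent (log2 change 0.35, SE 0.05, adjusted p = 0.00124). Among 25 microtubule-associated proteins 4 rose and 4 fell, against 2 to 3 and 1 to 2 with 1 library left out. CLIP1, a plus-end tracking protein (0.35), and CKAP2, a spindle protein (0.39), rose, and CKAP5, a microtubule polymerase (-0.38), fell in log2 terms. Of 19 kinesins and ARF-like GTPases of interphase transport none rose and 3 fell (15.8%, near the 14.7% of all tested genes), with 2 when a library was left out; KIFAP3, the cargo adaptor of kinesin-2, had 4.93 and 4.8 FPKM with 100 nM and 7.98 and 7.68 FPKM with solvent (log2 change -0.59, SE 0.06, adjusted p = 0.00033).

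Genes that act in mitosis split into a higher and a lower set. Over 8 mitotic role lists together, 42 of 151 tested genes rose (27.8%) and 37 fell (24.5%), with a median log2 change of 0.033, beside 9.16% and 14.7% of all tested genes. The switch that takes cells into mitosis held both sets: 8 of 19 tested genes rose and 6 fell. AURKA, the kinase that activates PLK1, had 199.8 and 199 FPKM with 100 nM, against 113 and 111 FPKM with solvent (log2 change 0.83, SE 0.04, adjusted p = 4.24e-06; chromosome 20, 56369389 to 56392337, minus strand). BORA, the cofactor through which AURKA acts on PLK1, had 34.8 and 37.3 FPKM with 100 nM and 22.6 and 21.3 FPKM with solvent (log2 change 0.69, SE 0.05, adjusted p = 4.67e-05), and it shares exonic bases with DIS3 on the opposite strand. PLK1, the polo-like kinase of centrosomes and kinetochores, had 256 and 265 FPKM with 100 nM and 167 and 165 FPKM with solvent (log2 change 0.65, SE 0.04, adjusted p = 6.81e-06). In each of the 3 the treated libraries lay above the solvent libraries by far more than the libraries of a group differed.

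Cyclin B1, the mitotic cyclin encoded by CCNB1, stood at 511 and 529.99 FPKM with 100 nM and 314 and 292 FPKM with solvent (log2 change 0.78, SE 0.04, adjusted p = 5.62e-06), and cyclin B2 (CCNB2) at 128 and 126 FPKM with 100 nM and 96.8 and 92.7 FPKM with solvent (log2 change 0.42, SE 0.03, adjusted p = 6.71e-05). CKS2, a small CDK-binding protein, had 574 and 563 FPKM with 100 nM and 355 and 341 FPKM with solvent (log2 change 0.71), and its paralog CKS1B had 205 and 189 FPKM with 100 nM and 310.3 and 312 FPKM with solvent (log2 change -0.66). The paralogs thus moved in opposite directions. TPX2, a spindle assembly factor and AURKA activator (0.398), and CCNA2, cyclin A2 (0.295), rose on the log2 scale. CDK1, the catalytic partner of cyclin B, had 29.9 and 26.7 FPKM with 100 nM, against 73.2 and 70.2 FPKM with solvent (log2 change -1.31, SE 0.05, adjusted p = 2.11e-06; chromosome 10, 60778331 to 60794852, plus strand). WEE1 and PKMYT1, the kinases that hold CDK1 inactive, fell as well: WEE1 had 20.7 and 19.2 FPKM with 100 nM and 34.6 and 31.6 FPKM with solvent (log2 change -0.699, SE 0.099, adjusted p = 0.00133). PKMYT1 had 64.6 and 60.3 FPKM with 100 nM and 81.3 and 81.6 FPKM with solvent (log2 change -0.38, SE 0.07, adjusted p = 0.0056). The cyclin and its kinase therefore lay on opposite sides, with no overlap of groups in either.

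**Figure D2:**
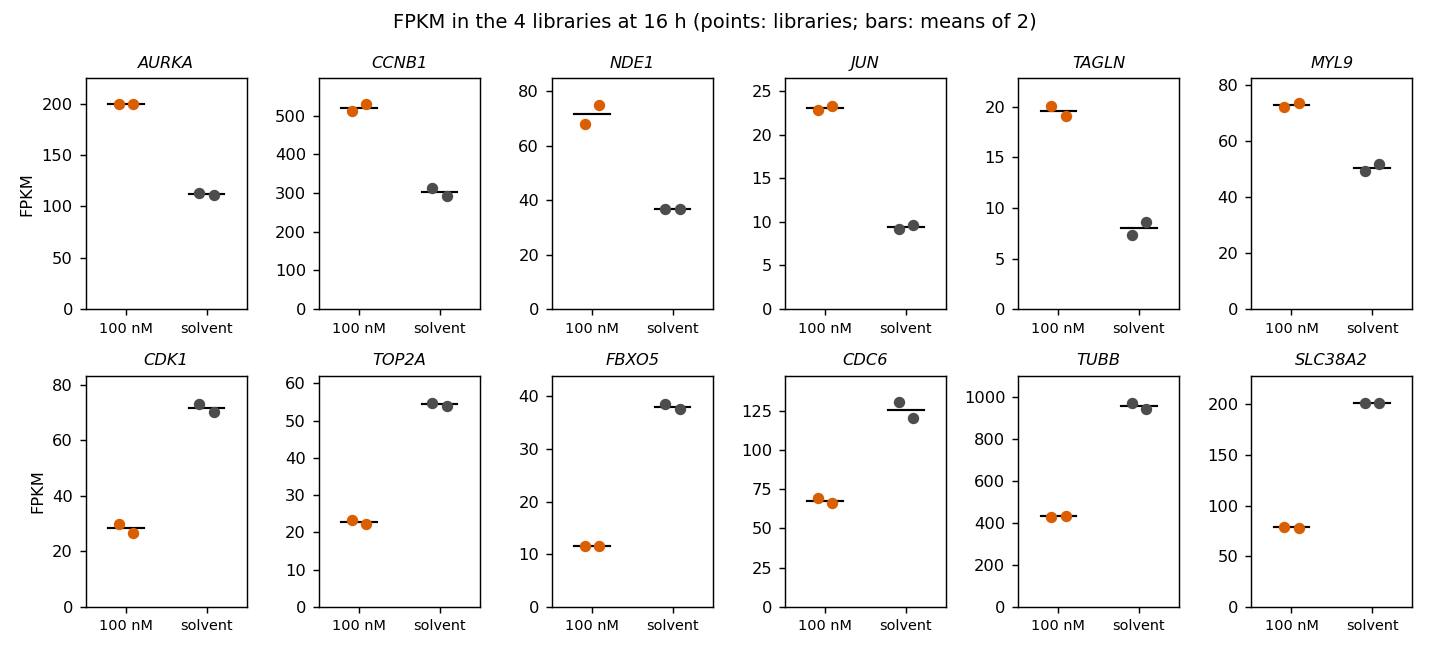
FPKM (vertical axes, each from 0) of 12 genes in the 2 libraries with 100 nM (orange, left) and the 2 with solvent (grey, right) at 16 h; points are libraries and bars are means of 2. In AURKA, CCNB1, NDE1, JUN, TAGLN and MYL9 both treated libraries lie above both solvent libraries, and in CDK1, TOP2A, FBXO5, CDC6, TUBB and SLC38A2 both lie below.

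Genes of the spindle assembly checkpoint were divided in the same way, 4 of 14 higher and 3 lower. BUB1B, the checkpoint protein BUBR1 that holds CDC20 in the inhibitory complex, had 88.7 and 89.4 FPKM with 100 nM and 68.3 and 68.4 FPKM with solvent (log2 change 0.38, SE 0.07, adjusted p = 0.00375). The kinase BUB1 had 83.97 and 87.3 FPKM with 100 nM and 69.5 and 65.7 FPKM with solvent (log2 change 0.34, SE 0.06, adjusted p = 0.00541). SPDL1, the kinetochore adaptor of dynein (0.47 on the log2 scale), rose too. BUB3, which carries both BUB1 and BUB1B to kinetochores, had 161 and 169 FPKM with 100 nM and 278 and 286 FPKM with solvent (log2 change -0.77, SE 0.06, adjusted p = 7.14e-05), the opposite direction to its partners. Leaving out 1 library gave 3 to 4 higher and 1 to 3 lower genes.

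Among 32 kinetochore and centromere genes, 6 rose and 6 fell. NDC80, of the outer complex that grips microtubules, had 48.2 and 48.1 FPKM with 100 nM and 37.2 and 36.9 FPKM with solvent (log2 change 0.37, SE 0.05, adjusted p = 0.00167). CENPA, the centromeric histone H3 variant, had 49.5 and 47.7 FPKM with 100 nM and 33.1 and 35.2 FPKM with solvent (log2 change 0.49, SE 0.05, adjusted p = 0.000137). CENPC, which binds CENPA nucleosomes, had 3.93 and 3.64 FPKM with 100 nM and 9.01 and 8.67 FPKM with solvent (log2 change -1.04, SE 0.06, adjusted p = 1.39e-05). CENPU (-0.62), DSN1 (-0.48) and SPC25 (-0.37), subunits of the inner and outer kinetochore, fell on the log2 scale. Of 8 genes of the chromosomal passenger complex and Shugoshin, 3 rose and 4 fell. Within the complex, the kinase AURKB (63.4 and 61.8 FPKM with 100 nM, 86.9 and 85.9 FPKM with solvent, log2 change -0.46) and its scaffold INCENP (34.3 and 34.3 FPKM with 100 nM, 51.7 and 52.8 FPKM with solvent, log2 change -0.595) were lower. Their partners BIRC5, survivin (119.9 and 102 FPKM with 100 nM, 78.3 and 75.9 FPKM with solvent, log2 change 0.52), and CDCA8, borealin (48.2 and 48.7 FPKM with 100 nM, 38.8 and 38.2 FPKM with solvent, log2 change 0.32), were higher. The 4 subunits of 1 complex thus split evenly, each with separate groups.

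The APC/C list held the largest decrease among called protein-coding genes of at least 10 FPKM. FBXO5, also called EMI1, which inhibits the APC/C through S and G2, had 11.5 and 11.6 FPKM with 100 nM, against 38.5 and 37.6 FPKM with solvent (log2 change -1.64, SE 0.05, adjusted p = 6.87e-07; chromosome 6, 152970519 to 152983579, minus strand). FZR1 (CDH1), the APC/C activator of late mitosis and G1, had 18.3 and 17.4 FPKM with 100 nM and 39.9 and 40.1 FPKM with solvent (log2 change -1.12, SE 0.06, adjusted p = 5.44e-06). By contrast, CDC20, the activator of early mitosis and the checkpoint's target, had 502 and 460.5 FPKM with 100 nM and 308 and 304 FPKM with solvent (log2 change 0.65, SE 0.06, adjusted p = 0.000181). The 2 activators moved in opposite directions. The same held for the 2 ubiquitin-conjugating enzymes of the complex, since UBE2C, which starts chains, had 155 and 155 FPKM with 100 nM and 315 and 321 FPKM with solvent (log2 change -1.03, SE 0.04, adjusted p = 1.52e-06). UBE2S, which extends them, had 1276 and 1381 FPKM with 100 nM and 949.9 and 937 FPKM with solvent (log2 change 0.49, SE 0.04, adjusted p = 8.9e-05). PTTG1, securin, a substrate of the complex, had 337 and 347 FPKM with 100 nM and 244 and 242 FPKM with solvent (log2 change 0.49, SE 0.05, adjusted p = 0.000278). In all, 6 of 21 rose and 6 fell; 3 to 4 rose with 1 library left out, CDC20, UBE2S and PTTG1 among them each time, and 3 rose after rescaling to a common sum.

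Mitotic kinesins were mostly higher, 7 of 13 against 2 lower, with a median of 0.23. KIF20A, the motor of the central spindle, had 87.03 and 90.4 FPKM with 100 nM and 51.5 and 50.6 FPKM with solvent (log2 change 0.79, SE 0.04, adjusted p = 8.13e-06). KIF14 (0.36), KIF4A (0.34) and KIF18B (0.28) rose on the log2 scale. KIF2A, a microtubule depolymerase, had 25.5 and 26.4 FPKM with 100 nM and 38.7 and 34.4 FPKM with solvent (log2 change -0.48, SE 0.07, adjusted p = 0.00149). KIF11, the motor that separates spindle poles (-0.28), fell. Only 4 kinesins rose without library 4. Genes of cytokinesis and the spindle pole had 9 of 23 higher and 3 lower, with 5 higher without library 4. CEP55, needed for abscission, had 81.8 and 85.6 FPKM with 100 nM and 59.6 and 57.5 FPKM with solvent (log2 change 0.51, SE 0.05, adjusted p = 0.000166). RACGAP1, of centralspindlin, had 97.3 and 98.8 FPKM with 100 nM and 77.9 and 74.3 FPKM with solvent (log2 change 0.36, SE 0.05, adjusted p = 0.000724). NUSAP1, a spindle-bundling protein, had 72.9 and 68.99 FPKM with 100 nM and 147 and 144 FPKM with solvent (log2 change -1.03, SE 0.05, adjusted p = 5.11e-06). Condensin, cohesin and topoisomerase II genes had none of 22 higher and 7 lower (2 higher under median-of-ratios scaling). TOP2A, which untangles sister chromatids, had 23.2 and 22.3 FPKM with 100 nM and 54.7 and 53.95 FPKM with solvent (log2 change -1.22, SE 0.06, adjusted p = 4.24e-06), NCAPH of condensin I fell (log2 change -0.74), and so did STAG2 (-0.68) and SMC3 (-0.398) of cohesin.

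Genes of FOXM1, B-MYB and the MuvB complex, which activate mitotic genes, were called about as often as all tested genes (23.1% and 23.8%). FOXM1 had 107.7 and 112 FPKM with 100 nM and 107.7 and 105 FPKM with solvent, a difference that did not pass (adjusted p = 0.446). In that list none of 13 rose and 3 fell. RBL1, the pocket protein p107 found in the repressing form of the complex, had 3.11 and 3.42 FPKM with 100 nM and 7.26 and 8.18 FPKM with solvent (log2 change -1.03, SE 0.08, adjusted p = 3.7e-05).

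Promoters of mitotic genes often carry the CHR element (cell cycle genes homology region), bound by the MuvB complex, and CCAAT boxes bound by NF-Y, while those of replication genes often carry E2F sites. For 4 genes that rose (CCNB1, PLK1, CCNB2, KIF20A) and 4 that fell (CDK1, TOP2A, FBXO5, CDC6), 180 bases around the start site (150 before it and the first 30 of the transcript) are shown so that the letters can be compared between the sets. Sequences are from RefSeq, GRCh38.p14, 5′ to 3′ on the gene's strand, with capitals marking TTTGAA or TTTAAA (CHR), CCAAT, and TTTGGCGC or TTTCGCGC (E2F) on either strand; no 2 matches overlap in these windows.
CCNB1 (chr5:69167000-69167179, plus strand): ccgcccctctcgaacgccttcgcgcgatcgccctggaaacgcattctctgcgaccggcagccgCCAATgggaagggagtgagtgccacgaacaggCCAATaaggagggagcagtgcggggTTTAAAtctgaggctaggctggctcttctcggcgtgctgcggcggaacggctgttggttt
PLK1 (chr16:23678739-23678918, plus strand): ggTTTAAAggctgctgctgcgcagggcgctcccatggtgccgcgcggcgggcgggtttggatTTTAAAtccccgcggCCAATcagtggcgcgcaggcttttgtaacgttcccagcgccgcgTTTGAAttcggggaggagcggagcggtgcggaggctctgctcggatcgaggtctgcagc
CCNB2 (chr15:59104996-59105175, plus strand): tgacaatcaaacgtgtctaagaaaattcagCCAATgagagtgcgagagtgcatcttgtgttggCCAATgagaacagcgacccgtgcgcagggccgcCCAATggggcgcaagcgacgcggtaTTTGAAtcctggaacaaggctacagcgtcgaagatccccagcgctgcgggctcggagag
KIF20A (chr5:138178962-138179141, plus strand): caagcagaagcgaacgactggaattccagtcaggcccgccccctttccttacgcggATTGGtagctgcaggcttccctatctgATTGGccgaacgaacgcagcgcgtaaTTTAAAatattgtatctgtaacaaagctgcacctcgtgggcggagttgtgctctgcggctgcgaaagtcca
CDK1 (chr10:60778181-60778360, plus strand): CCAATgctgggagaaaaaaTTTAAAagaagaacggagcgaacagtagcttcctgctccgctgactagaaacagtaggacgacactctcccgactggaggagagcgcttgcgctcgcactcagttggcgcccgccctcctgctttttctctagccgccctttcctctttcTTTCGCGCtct
TOP2A (chr17:40417867-40418046, minus strand): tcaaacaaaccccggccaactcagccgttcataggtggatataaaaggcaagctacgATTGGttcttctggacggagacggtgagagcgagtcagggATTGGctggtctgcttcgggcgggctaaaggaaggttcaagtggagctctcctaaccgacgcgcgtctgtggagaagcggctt
FBXO5 (chr6:152983550-152983729, minus strand): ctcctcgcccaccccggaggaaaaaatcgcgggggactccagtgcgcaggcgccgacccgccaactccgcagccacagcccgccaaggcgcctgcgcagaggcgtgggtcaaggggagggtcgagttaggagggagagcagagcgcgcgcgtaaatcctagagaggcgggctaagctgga
CDC6 (chr17:40287729-40287908, plus strand): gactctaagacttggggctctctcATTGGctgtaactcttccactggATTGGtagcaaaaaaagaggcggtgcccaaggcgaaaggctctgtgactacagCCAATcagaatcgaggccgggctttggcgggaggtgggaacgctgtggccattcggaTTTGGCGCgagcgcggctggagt
CCNB1, PLK1 and CCNB2 hold a CHR match starting 29 or 30 bases before the start site and KIF20A one 41 bases before it, each with at least 1 CCAAT box upstream of it. CDK1 holds a CHR match 131 bases before its start and an E2F match within the transcript, CDC6 holds an E2F match and 3 CCAAT boxes, TOP2A has CCAAT boxes alone, and FBXO5 has none of these letters in the window.

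Over whole lists the same windows were available for 131 of the 151 mitotic genes. CHR letters stood in 27 of 38 mitotic genes that rose (71.1%), in 11 of 31 that fell (35.5%) and in 18 of 62 that did not pass (29%). Of 27305 RefSeq promoters, 14.5% held them, and among promoters of tested genes 7.73%. CCAAT boxes stood in 71.1% of mitotic genes that rose and 51.6% of those that fell, beside 26.4% of all promoters and 28.8% of those of tested genes. Over all called genes CCAAT boxes stood in 30.4% of those that rose and 31.1% of those that fell, and CHR letters in 11.6% and 7.18%. E2F letters stood in 11 of 46 replication genes that fell (23.9%) and in 3 of 48 that did not pass (6.25%). They stood in 0.802% of all promoters and 1.46% of those of tested genes. Over all called genes E2F letters stood in 1.02% of those that rose and 2.52% of those that fell. These shares describe letters in the windows and were not tested.

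Nearly all DNA replication genes that passed the test fell. Over 4 lists of G1/S control, replication, nucleotide supply and recombination, 57 of 114 tested genes fell (50%) and 2 rose (1.75%), with a median of -0.209. In the G1/S list none of 20 rose and 11 fell, with 7 to 9 when a library was left out. CCNE2, cyclin E2, which drives entry into S phase, had 11.98 and 11.4 FPKM with 100 nM and 29.4 and 32.05 FPKM with solvent (log2 change -1.32, SE 0.1002, adjusted p = 3.98e-05); its exons overlap those of INTS8 over 1629 bases on the opposite strand. E2F7, an atypical E2F repressor, had 3.8 and 5.07 FPKM with 100 nM and 10.4 and 11.4 FPKM with solvent (log2 change -1.14, SE 0.17, adjusted p = 0.00176). E2F8 (-0.62), E2F2 (-0.58) and CDK2 (-0.56) fell on the log2 scale. CDKN1A, the CDK inhibitor p21, was at 5.54 and 5.16 FPKM with 100 nM and at 6.21 and 6.37 FPKM with solvent and did not pass (adjusted p = 0.146).

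Of 49 genes of origin licensing and the replisome 27 fell and 1 rose, with 21 to 26 lower when a library was left out and none higher without library 3, 4 or 5. CDC6, which loads the MCM helicase at origins, had 69.4 and 66.1 FPKM with 100 nM and 130.5 and 120.3 FPKM with solvent (log2 change -0.88, SE 0.06, adjusted p = 3.58e-05). CLSPN, claspin, which couples the fork to the checkpoint kinase ATR, had 23.4 and 23.8 FPKM with 100 nM and 42.3 and 41.2 FPKM with solvent (log2 change -0.796, SE 0.04, adjusted p = 6.23e-06). The polymerase clamp PCNA had 230.2 and 229 FPKM with 100 nM and 341 and 332 FPKM with solvent (log2 change -0.55, SE 0.04, adjusted p = 4.58e-05). None of the 3 had overlapping groups, and 36% of all tested genes likewise had both treated libraries below both solvent libraries. Of the helicase, MCM5 (-0.57), MCM6 (-0.402), MCM2 (-0.36) and MCM3 (-0.197) fell; so did the primase subunit PRIM1 (-0.53), the polymerase alpha subunits POLA1 (-0.47) and POLA2 (-0.55), and the GINS subunits GINS2 (-0.52) and GINS1 (-0.44), all on the log2 scale. The 1 gene that rose, DBF4, the activator of CDC7, lost its call without library 3, 4 or 5 (adjusted p up to 0.121).

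Nucleotide supply had none of 15 genes higher and 6 lower. SLC29A1, the nucleoside transporter ENT1, had 41.95 and 44.2 FPKM with 100 nM and 97.6 and 96.8 FPKM with solvent (log2 change -1.16, SE 0.04, adjusted p = 1.52e-06). SAMHD1, which degrades dNTPs, had 8.94 and 8.9 FPKM with 100 nM and 14.1 and 14.1 FPKM with solvent (log2 change -0.604, SE 0.06, adjusted p = 0.000168). In homologous recombination and the Fanconi pathway 13 of 30 fell and 1 rose, with 8 to 9 lower and none higher when a library was left out (8 lower without library 3) and none higher after rescaling to a common sum. BARD1, partner of BRCA1, had 3.7 and 3.56 FPKM with 100 nM and 7.36 and 7.04 FPKM with solvent (log2 change -0.82, SE 0.09, adjusted p = 0.000292). The nuclease EXO1 had 19.8 and 20.7 FPKM with 100 nM and 33.8 and 30.4 FPKM with solvent (log2 change -0.64, SE 0.06, adjusted p = 0.000165). Replication-dependent histone genes went the other way, 9 of 16 higher and 1 lower with a median of 0.45, and 6 to 7 higher when a library was left out (2 lower without library 3, none without any other). HIST1H2BC had 6.89 and 6.52 FPKM with 100 nM and 1.62 and 1.11 FPKM with solvent (log2 change 1.71, SE 0.14, adjusted p = 6.75e-05). HIST2H2AA4 had 19.9 and 17.1 FPKM with 100 nM and 7.13 and 7.52 FPKM with solvent (log2 change 1.23, SE 0.101, adjusted p = 6.57e-05). HIST1H2AC had 5.97 and 4.36 FPKM with 100 nM and 1.63 and 1.77 FPKM with solvent (log2 change 1.18, SE 0.14, adjusted p = 0.000545). Poly(A) selection captures little of the mRNA of these genes, which normally ends without a tail, and many are near-identical copies.

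**Figure D3:**
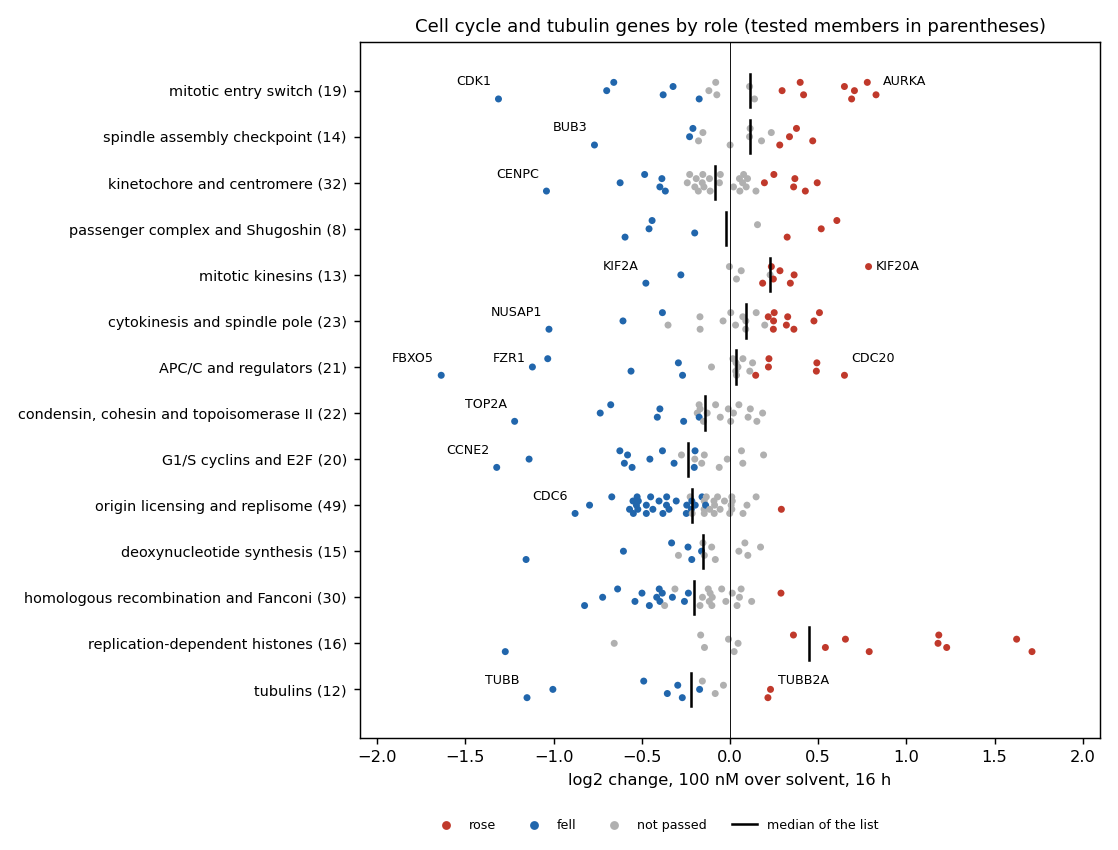
Log2 change (100 nM over solvent at 16 h, horizontal axis) of each tested gene in 14 role lists, with the number of tested genes in parentheses; red points rose, blue points fell, grey points did not pass, and black bars are list medians. The mitotic lists spread to both sides of 0, the G1/S and replisome lists lie mostly left of it (medians -0.24 and -0.22), and the histone list lies mostly right (0.45).

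Several transcription factors of the AP-1 family and genes of the actin cytoskeleton rose, while many other immediate early genes fell. Of 12 AP-1 genes 5 rose and 2 fell, and 5 rose and 1 fell whichever library was left out. JUN had 22.9 and 23.3 FPKM with 100 nM, against 9.18 and 9.64 FPKM with solvent (log2 change 1.21, SE 0.06, adjusted p = 4.14e-06; chromosome 1, 58780788 to 58784327, minus strand). Its partner FOS had 12.7 and 16.1 FPKM with 100 nM and 6.84 and 4.78 FPKM with solvent (log2 change 1.19, SE 0.21, adjusted p = 0.00466), the libraries of each group differing more than those of JUN, and FOSL1, the most abundant FOS relative, had 324 and 342 FPKM with 100 nM and 203 and 204 FPKM with solvent (log2 change 0.71, SE 0.05, adjusted p = 1.91e-05). JUND, the family member usually present in resting cells, had 51.4 and 57.5 FPKM with 100 nM and 116 and 113 FPKM with solvent (log2 change -1.06, SE 0.08, adjusted p = 3.7e-05). JUN and JUND thus moved in opposite directions without overlap.

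Among 18 other immediate early genes 1 rose and 10 fell (7 to 10 when a library was left out). EGR1, a zinc finger factor induced by growth signals, was the 1 that rose, at 41.9 and 45.5 FPKM with 100 nM and 28.6 and 24.5 FPKM with solvent (log2 change 0.6998, SE 0.08, adjusted p = 0.00044). KLF6 had 29.2 and 31.1 FPKM with 100 nM and 51.6 and 53.7 FPKM with solvent (log2 change -0.79, SE 0.05, adjusted p = 1.68e-05). IER5 had 5.89 and 5.37 FPKM with 100 nM and 10.8 and 10.9 FPKM with solvent (log2 change -0.84, SE 0.096, adjusted p = 0.000424). Of 21 genes that ERK signalling induces or that feed back on it, 10 fell and 3 rose. DUSP6, the cytoplasmic ERK phosphatase, had 13.2 and 13.4 FPKM with 100 nM and 29.1 and 31.6 FPKM with solvent (log2 change -1.13, SE 0.08, adjusted p = 2.91e-05). ETV1 (-0.95), SPRY4 (-0.64), PHLDA1 (-0.57) and EREG (-0.39) fell on the log2 scale. HBEGF, a ligand of the EGF receptor, had 6.7 and 6.13 FPKM with 100 nM and 3.84 and 3.53 FPKM with solvent (log2 change 0.66, SE 0.08, adjusted p = 0.000573). The nuclear phosphatase DUSP2 had 21.8 and 20.9 FPKM with 100 nM and 12.8 and 13.8 FPKM with solvent (log2 change 0.64, SE 0.13, adjusted p = 0.00709). The ligands EREG and HBEGF therefore differed in direction.

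Of 26 SRF and actin genes 11 rose and 1 fell, with a median of 0.13 and 8 to 9 higher when a library was left out. TAGLN, transgelin, an actin-binding protein and SRF target, had 20.1 and 19.1 FPKM with 100 nM and 7.32 and 8.62 FPKM with solvent (log2 change 1.201, SE 0.11, adjusted p = 0.000107; chromosome 11, 117199321 to 117204782, plus strand), and it shares 446 exonic bases with PCSK7 on the opposite strand. The myosin light chains MYL9 (72.2 and 73.6 FPKM with 100 nM, 49.1 and 51.9 FPKM with solvent, log2 change 0.52) and MYL12A (208 and 204 FPKM with 100 nM, 165 and 163 FPKM with solvent, log2 change 0.33) and the heavy chain MYH9 (221 and 236 FPKM with 100 nM, 178 and 171 FPKM with solvent, log2 change 0.39) rose together. SRF itself rose by 0.37, the focal adhesion proteins FHL2 and ZYX by 0.57 and 0.39, and tropomyosin TPM4 by 0.34 on the log2 scale, while CAPZA1, an actin capping subunit, fell (-0.42). ARHGEF11, an exchange factor that activates RHOA, had 4.56 and 4.89 FPKM with 100 nM and 12.8 and 11.5 FPKM with solvent (log2 change -1.195, SE 0.09, adjusted p = 2.94e-05). RHOB had 55.2 and 53.3 FPKM with 100 nM and 77.1 and 75.6 FPKM with solvent (log2 change -0.49, SE 0.05, adjusted p = 0.000346). RHOA had 349.5 and 355 FPKM with 100 nM and 396 and 402 FPKM with solvent (log2 change -0.18, SE 0.03, adjusted p = 0.00297).

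Targets of YAP and TEAD, the Hippo pathway's output, had 5 of 18 lower and 2 higher (none higher without library 3 or 6). CTGF, a matrix-associated growth factor, had 2.53 and 2.1 FPKM with 100 nM and 8.93 and 7.95 FPKM with solvent (log2 change -1.51, SE 0.09, adjusted p = 9.6e-06). Its relative CYR61 had 95.7 and 96.1 FPKM with 100 nM and 112 and 115 FPKM with solvent (log2 change -0.24, SE 0.04, adjusted p = 0.00496). AMOTL2, a YAP-binding angiomotin, fell too (log2 change -0.66). HCT116 cells carry a stabilised beta-catenin, and of 18 Wnt pathway targets 9 fell and 1 rose, with a median of -0.28 and 6 to 7 lower when a library was left out (none higher without library 4 or 6). SOX4 had 13.9 and 13.3 FPKM with 100 nM and 28.6 and 28.2 FPKM with solvent (log2 change -1.01, SE 0.05, adjusted p = 5.44e-06). SOX9 had 5.09 and 5.34 FPKM with 100 nM and 10.7 and 10.04 FPKM with solvent (log2 change -0.87, SE 0.06, adjusted p = 3.13e-05). The secreted Wnt antagonist DKK1 had 311 and 302 FPKM with 100 nM and 536 and 549.8 FPKM with solvent (log2 change -0.82, SE 0.05, adjusted p = 1.1e-05). Both SOX transcription factors and DKK1 had treated libraries well below the solvent libraries, and BMP4 (-0.52) and TCF7 (-0.48) were lower by less. AXIN2, the negative-feedback target most often used as a readout, fell (log2 change -0.38), a call lost whichever library was left out (adjusted p = 0.0579 to 0.131).

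Matrix and adhesion genes went both ways: 6 of 23 rose and 8 fell, with 3 to 7 lower when a library was left out. TNC, the matrix protein tenascin C, rose (log2 change 1.31). CD44, the hyaluronan receptor, had 114 and 122 FPKM with 100 nM and 73.3 and 74.7 FPKM with solvent (log2 change 0.67, SE 0.05, adjusted p = 3.7e-05). Among syndecans, SDC4 rose (log2 change 0.54) and SDC1 fell (-0.58). Of 15 collagen-modifying genes 4 fell and 5 rose; none rose without library 4, and 1 or 2 without any other. CRTAP, of the prolyl 3-hydroxylation complex, had 29.5 and 30.5 FPKM with 100 nM and 61.9 and 59.1 FPKM with solvent (log2 change -0.99, SE 0.05, adjusted p = 5.44e-06). The lysyl hydroxylase PLOD2 had 8.81 and 8.74 FPKM with 100 nM and 14.5 and 15.04 FPKM with solvent (log2 change -0.69, SE 0.08, adjusted p = 0.00063). In the keratin and junction list 8 of 26 fell and 1 rose, with 4 to 7 lower when a library was left out. KRT19, a simple-epithelial keratin, had 482 and 486 FPKM with 100 nM and 385 and 351 FPKM with solvent (log2 change 0.39, SE 0.06, adjusted p = 0.00181), whereas the tight junction scaffold TJP1 (-0.57) and the desmosomal cadherin DSC2 (-0.81) fell on the log2 scale.

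Amino acid and lipid genes held several large decreases. SLC38A2, the neutral amino acid transporter SNAT2, had 79.1 and 78.3 FPKM with 100 nM, against 201 and 201 FPKM with solvent (log2 change -1.34, SE 0.04, adjusted p = 6.87e-07; chromosome 12, 46358189 to 46372867, minus strand). In the list of ATF4 targets, which amino acid shortage induces, 7 of 26 rose and 7 fell, with 2 to 4 higher and 4 to 6 lower when a library was left out and 2 higher after rescaling to a common sum. The serine synthesis enzyme PSAT1 had 40.1 and 39.3 FPKM with 100 nM and 73 and 67.7 FPKM with solvent (log2 change -0.81, SE 0.04, adjusted p = 5.44e-06). DDIT3 (CHOP), a stress transcription factor, had 15.2 and 17.6 FPKM with 100 nM and 10.2 and 10.5 FPKM with solvent (log2 change 0.61, SE 0.08, adjusted p = 0.00124). The groups were separate for both, in opposite directions, and DDIT3 shares exonic bases with MARS on the opposite strand. Of 34 cholesterol and SREBP genes none rose and 8 fell, and 1 rose under median-of-ratios scaling. The share called, 23.5%, was near the 23.8% of all tested genes, of which 14.7% fell. STARD4, a cholesterol carrier, had 8.21 and 8.81 FPKM with 100 nM and 17.2 and 17.5 FPKM with solvent (log2 change -0.95, SE 0.07, adjusted p = 3.09e-05), SREBF1, the transcription factor SREBP-1 (-0.44), and FDFT1, squalene synthase (-0.33), fell on the log2 scale.

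Antioxidant genes under NRF2 had 8 of 21 lower and 1 higher, with 4 to 7 lower when a library was left out. HMOX1, heme oxygenase, had 13.8 and 12.2 FPKM with 100 nM and 18.6 and 19.6 FPKM with solvent (log2 change -0.53, SE 0.07, adjusted p = 0.000989), NQO1, a quinone reductase, fell (log2 change -0.41). SRXN1, sulfiredoxin, had 95.2 and 94.5 FPKM with 100 nM and 62.01 and 60.5 FPKM with solvent (log2 change 0.62, SE 0.06, adjusted p = 0.000145). Hypoxia genes had 6 of 26 lower and 1 higher (3 to 5 lower with a library left out, and none higher without library 4, 5 or 6). The share called, 26.9%, was near the 23.8% of all tested genes, and 23.1% fell, beside 14.7% of all tested genes. VEGFA, the angiogenic growth factor, had 13.04 and 15.8 FPKM with 100 nM and 26.9 and 28.3 FPKM with solvent (log2 change -0.897, SE 0.097, adjusted p = 0.000323). Of 13 mitochondrially encoded genes 5 rose and none fell, with a median of 0.21, and 3 to 5 rose with a library left out. MT-CYB, of complex III, had 5610.2 and 6393 FPKM with 100 nM and 4141 and 4391 FPKM with solvent (log2 change 0.49, SE 0.07, adjusted p = 0.00153). MT-ND6 and MT-ND5, of complex I, rose by 0.55 and 0.46 on the log2 scale. MT-CO2 (0.28) and MT-ND4 (0.25) were among the 5 largest increases in FPKM but lost their calls in 3 of the 4 omissions (adjusted p up to 0.131 and 0.172). Nuclear genes of the respiratory chain had 1 of 55 higher and 4 lower, against none higher and 1 to 3 lower with a library left out. SDHA of complex II had 59.9 and 59.3 FPKM with 100 nM and 89.6 and 84.6 FPKM with solvent (log2 change -0.54, SE 0.05, adjusted p = 9.61e-05).

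Heat shock genes were more often higher than lower. Of 18 tested, 8 rose and 2 fell, and 6 to 7 rose when a library was left out. BAG3, a cochaperone, had 141 and 147 FPKM with 100 nM and 96.1 and 98.5 FPKM with solvent (log2 change 0.56, SE 0.04, adjusted p = 2.45e-05). HSPA8, the constitutive HSP70, had 2025 and 2052 FPKM with 100 nM and 1624 and 1625 FPKM with solvent (log2 change 0.33, SE 0.04, adjusted p = 0.00066). HSPB1, the small heat shock protein HSP27, had 1211 and 1209 FPKM with 100 nM and 948 and 909 FPKM with solvent (log2 change 0.38, SE 0.05, adjusted p = 0.00075). HSPA1B, an inducible HSP70 near-identical to HSPA1A, had 424 and 439 FPKM with 100 nM and 574 and 575 FPKM with solvent (log2 change -0.41, SE 0.03, adjusted p = 3.81e-05). ER chaperone genes had 4 of 23 higher and 1 lower (1 to 3 higher and 0 to 2 lower with a library left out). The share called, 21.7%, was near the 23.8% of all tested genes, of which 9.16% rose. HERPUD1 (0.24), an ER degradation factor, was called in each omission.

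Targets of p53, which is wild type in HCT116, had 6 of 30 higher and 7 lower, with 3 higher and 3 to 5 lower when a library was left out. AEN, a nuclease induced by p53, had 53.1 and 51.5 FPKM with 100 nM and 32.4 and 32.9 FPKM with solvent (log2 change 0.66, SE 0.07, adjusted p = 0.000386). ZMAT3, an RNA-binding target, had 1.17 and 1.44 FPKM with 100 nM and 2.61 and 2.82 FPKM with solvent (log2 change -0.69, SE 0.13, adjusted p = 0.00591). MDM2, the p53 ligase and target, was at 41.1 and 44.3 FPKM with 100 nM and at 40.4 and 42.0 FPKM with solvent and overlapped (adjusted p = 0.619). Among 25 genes of the BCL2 family and caspases 4 rose and 6 fell, with 3 to 6 lower when a library was left out. MCL1, the short-lived survival protein, had 51.5 and 52.95 FPKM with 100 nM and 66.5 and 62.1 FPKM with solvent (log2 change -0.29, SE 0.05, adjusted p = 0.00221). Its antagonist PMAIP1 (NOXA) had 40.3 and 39.9 FPKM with 100 nM and 30.6 and 31.1 FPKM with solvent (log2 change 0.37, SE 0.05, adjusted p = 0.000807). BAK1, the pore-forming effector, rose (log2 change 0.38). CASP2, an initiator caspase (-0.67), and DIABLO, which blocks caspase inhibitors (-0.65), fell. Interferon response genes had 8 of 26 lower and 2 higher, with 5 to 6 lower and 1 to 3 higher when a library was left out. HERC5, an ISG15 ligase (-0.996), fell, and IFI27 rose (0.697), on the log2 scale. NFKBIA, the inhibitor of NF-kB, had 15.04 and 14.3 FPKM with 100 nM and 29.3 and 28.4 FPKM with solvent (log2 change -0.93, SE 0.05, adjusted p = 8.05e-06).

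**Figure D4:**
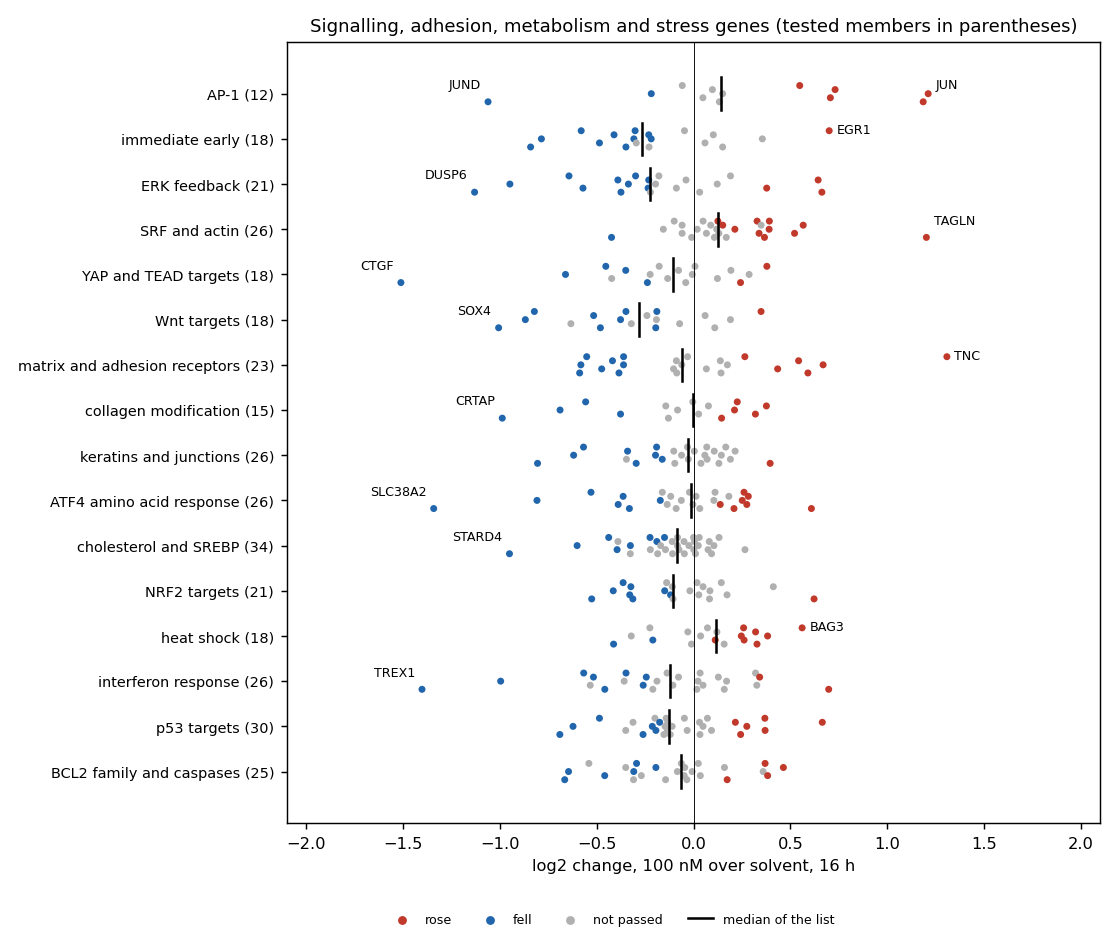
Log2 change (100 nM over solvent at 16 h, horizontal axis) of each tested gene in 16 lists of signalling, adhesion, metabolism and stress, with the number of tested genes in parentheses; colours and bars mean rose (red), fell (blue), not passed (grey) and list median (black). The SRF and actin list lies mostly right of 0 (median 0.13), the Wnt and immediate early lists mostly left (-0.28 and -0.26), and JUN and JUND stand at the 2 ends of the AP-1 row.

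Genes of transcription, splicing and chromatin included some of the larger decreases. RBM23, an RNA-binding splicing regulator, had 19.3 and 21.5 FPKM with 100 nM and 61.3 and 58.3 FPKM with solvent (log2 change -1.51, SE 0.098, adjusted p = 1.85e-05; chromosome 14, 22893206 to 22919184, minus strand). Of 32 spliceosome and SR protein genes 1 rose and 5 fell (15.6%, near the 14.7% of all tested genes). When a library was left out 2 to 4 were lower, and 2 were higher without library 4. SP1, the zinc finger factor of GC boxes, had 8.21 and 9.31 FPKM with 100 nM and 24.1 and 24.3 FPKM with solvent (log2 change -1.37, SE 0.07, adjusted p = 4.21e-06; chromosome 12, 53380176 to 53416446, plus strand). Both genes had solvent levels near 3 times those of the treated libraries. Ribosome biogenesis genes had 10 of 30 higher and 1 lower, with 5 to 6 higher and none lower when a library was left out, among them UTP14A (0.41), LYAR (0.36) and NOP58 (0.31). Chromatin modifiers had 9 of 34 lower and none higher, though 4 were higher under median-of-ratios scaling and 2 without library 3. The share called, 26.5%, was near the 23.8% of all tested genes, of which 14.7% fell. ASF1B and CHAF1B, which deposit histones at the fork, fell (-0.57 and -0.399 on the log2 scale). Nuclear envelope and pore genes had 10 of 32 lower and 4 higher, with 5 to 8 lower and 2 to 3 higher when a library was left out, and the pore basket protein NUP153 had 23.1 and 24.9 FPKM with 100 nM and 40.99 and 39.8 FPKM with solvent (log2 change -0.73, SE 0.06, adjusted p = 7.45e-05). Autophagy genes had 8 of 24 lower and 1 higher (4 or 5 lower and none higher when a library was left out); GABARAP, which marks autophagosomes, had 87.5 and 92.6 FPKM with 100 nM and 161 and 187 FPKM with solvent (log2 change -0.94, SE 0.11, adjusted p = 0.000493).

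Noncoding genes added large changes. MALAT1, an abundant nuclear RNA, had 384 and 377 FPKM with 100 nM and 167 and 193 FPKM with solvent (log2 change 1.08, SE 0.11, adjusted p = 0.000252). SNHG12, a snoRNA host transcript, had 19.8 and 17.5 FPKM with 100 nM and 49.4 and 51.1 FPKM with solvent (log2 change -1.39, SE 0.12, adjusted p = 9.9e-05). SNHG1, another host, fell too (-0.36). Partial copies of SMG1 and SLC7A5 on chromosome 16 rose in 9 of 11 tested genes of that list, parent SLC7A5 included, and none fell: SLC7A5P2 had 14.5 and 13.6 FPKM with 100 nM and 3.15 and 2.48 FPKM with solvent (log2 change 1.98, SE 0.11, adjusted p = 6.8e-06). SMG1P3 had 22.6 and 28.1 FPKM with 100 nM and 10.4 and 7.35 FPKM with solvent (log2 change 1.43, SE 0.203, adjusted p = 0.00138). These copies are near-identical to each other and share exons with NPIP genes, so the share of each is uncertain, and 6 to 8 rose when a library was left out. BCYRN1 had 229 and 232 FPKM with 100 nM and was listed at 0 with solvent. Its annotated transcript of 200 bases is shorter than the fragment lengths fitted to these libraries (330 to 350 bases), so its level is uncertain. SNORD17, a small nucleolar RNA, was listed at 0 in both 100 nM libraries and at 22.5 and 8.85 FPKM with solvent (adjusted p = 0.00512).

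Other protein-coding genes met the rule for the 15 largest changes in each direction. The purinergic receptor P2RY11 had 23.4 and 22.3 FPKM with 100 nM and 11.6 and 11.2 FPKM with solvent (log2 change 0.95, SE 0.06, adjusted p = 9.6e-06). NABP1, a single-stranded DNA binding protein, had 12.3 and 13.97 FPKM with 100 nM and 6.95 and 6.29 FPKM with solvent (log2 change 0.89, SE 0.08, adjusted p = 8.9e-05). ZFAND2A, a zinc finger protein of the proteasome stress response, had 56.2 and 63.2 FPKM with 100 nM and 32.6 and 34.99 FPKM with solvent (log2 change 0.802, SE 0.07, adjusted p = 6.68e-05). FBRSL1 (0.84) and CCDC150 (0.88) rose, as did NPIPB12 (0.83) and AC126755.2 (0.79), members of a duplicated family or region of chromosome 16. CALM2, one of the genes for calmodulin, had 214 and 202 FPKM with 100 nM and 481 and 498 FPKM with solvent (log2 change -1.23, SE 0.04, adjusted p = 6.87e-07). MTFR2, a mitochondrial fission regulator, had 7.82 and 6.62 FPKM with 100 nM and 22.02 and 17.9 FPKM with solvent (log2 change -1.35, SE 0.11, adjusted p = 4.93e-05). ADGRG6, an adhesion receptor, had 4.92 and 4.98 FPKM with 100 nM and 13.99 and 13.7 FPKM with solvent (log2 change -1.32, SE 0.06, adjusted p = 3.37e-06). The membrane proteins SEMA4C (-1.34), MYADM (-1.25) and SCAMP2 (-1.204) and the phosphatidylinositol transfer protein PITPNB (-1.21) fell by similar amounts on the log2 scale. By difference in FPKM, the nuclear protein PTMA, prothymosin alpha, stood with 3 tubulins among the 5 largest decreases, at 2018 and 2046 FPKM with 100 nM and 2744 and 2723 FPKM with solvent (log2 change -0.43, SE 0.04, adjusted p = 0.000196). NPM1, nucleophosmin, had 3608 and 3713 FPKM with 100 nM and 4080 and 4082 FPKM with solvent (log2 change -0.16, SE 0.04, adjusted p = 0.0302), a call lost whichever library was left out (adjusted p = 0.0674 to 0.134).

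Few genes passed the test of 100 nM against 20 nM at the same time, in a design of 2 libraries against 2. The libraries had separate scores on the first principal component (25.9% of variance over all 12 libraries), at -23.3 and -22.1 with 100 nM, -14.4 and -11.4 with 20 nM and -0.29 and 0.2 with solvent. Of 13458 genes 43 passed (0.32%), 6 higher (0.0446%) and 37 lower (0.275%) at 100 nM, with 15 to 18 when any one of the 4 libraries was left out and none in a fit of these 4 libraries alone by limma, where 1671 had an unadjusted p under 0.05. Of the named and listed genes among the 43, HES1, FBXO5 and SLC38A2 were called in each omission. HES1, a Notch-responsive repressor, had 9.11 and 9.29 FPKM with 100 nM and 15.2 and 15.4 FPKM with 20 nM (log2 change -0.68, SE 0.04, adjusted p = 0.000485). FBXO5 had 11.5 and 11.6 FPKM with 100 nM and 17.97 and 17.9 FPKM with 20 nM (log2 change -0.59, SE 0.05, adjusted p = 0.00383). SLC38A2 had 79.1 and 78.3 FPKM with 100 nM and 118 and 113 FPKM with 20 nM (log2 change -0.55, SE 0.04, adjusted p = 0.00178). All 3 also fell against solvent, a comparison that shares the 100 nM libraries with this one: the HES1 libraries with solvent held 17.7 and 17.6 FPKM. CCNE2 (-0.86), DUSP6 (-0.62) and EIF1AD (-0.63) were lower at 100 nM than at 20 nM and CD44 (0.35), ASB8 (0.38), TSPAN5 (0.29), HSPA8 (0.26) and ANXA3 (0.26) higher, on the log2 scale, each losing its call in at least 3 of 4 omissions (highest adjusted p 0.111 for CCNE2, 0.145 for DUSP6, 0.244 for EIF1AD, 0.188 for CD44, 0.215 for ASB8, 0.225 for TSPAN5, 0.241 for HSPA8, 0.25 for ANXA3). HIST2H2AA4 had 19.9 and 17.1 FPKM with 100 nM and 33.7 and 27.9 FPKM with 20 nM (log2 change -0.699, SE 0.101, adjusted p = 0.0342), lost in 3 of 4 omissions (highest adjusted p 0.181).

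The effect of 100 nM differed between 16 h and 24 h in 1368 genes (10.2%): relative to its size at 16 h it was higher at 24 h in 790 (5.87%) and lower in 578 (4.29%). The split became 548 and 903 after rescaling to a common sum and 578 and 875 after rescaling to a common sum of nuclear genes, and 632 to 966 genes passed when any one of the 8 libraries was left out (966 without library 3, 632 without library 9). This test shares the libraries of 16 h with the comparison above, so a gene's values at both times are given side by side. Several mitotic genes that were higher at 16 h, AURKA, NEK2 and GAS2L3 among them, had a lower effect at 24 h. AURKA had 199.8 and 199 FPKM with 100 nM and 113 and 111 FPKM with solvent at 16 h, and 120.4 and 113 FPKM with 100 nM and 113 and 111 FPKM with solvent at 24 h (difference of log2 changes -0.77, SE 0.06, adjusted p = 0.000162). NEK2, a centrosomal kinase, had 58.8 and 60.1 FPKM with 100 nM and 50.03 and 49.9 FPKM with solvent at 16 h, against 31.7 and 31.98 FPKM with 100 nM and 55.2 and 53.6 FPKM with solvent at 24 h (difference -1.001, adjusted p = 9.09e-05). GAS2L3, which links actin to microtubules, had 13.8 and 14.3 FPKM with 100 nM and 10.03 and 10.01 FPKM with solvent at 16 h, and 8.05 and 7.62 FPKM with 100 nM and 12.8 and 13.2 FPKM with solvent at 24 h (difference -1.12, adjusted p = 0.000376). The sign thus changed between times in NEK2 and GAS2L3. By list, the effect at 24 h was lower in 12 and higher in 2 of 19 mitotic entry genes, lower in 10 of 13 kinesins, 14 of 23 cytokinesis genes and 5 of 8 passenger complex and Shugoshin genes, and higher in none of these last 3 lists. It was lower in 5 and higher in 1 of 14 checkpoint genes, lower in 7 and higher in 4 of 32 kinetochore genes, lower in 2 and higher in 4 of 21 APC/C genes, and lower in 1 and higher in 1 of 22 condensin, cohesin and topoisomerase II genes. Among mitotic genes that rose at 16 h, CDC20 (-0.298, adjusted p = 0.0714), PTTG1 (-0.26, adjusted p = 0.0594), MAD2L1, ANAPC10, CDC16, CDC26 and CENPO did not pass the test of a difference between times.

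Several genes with strong decreases at 16 h had levels near solvent at 24 h. FBXO5 at 24 h had 34.6 and 34.9 FPKM with 100 nM and 36.3 and 40.3 FPKM with solvent (difference of log2 changes 1.502, SE 0.07, adjusted p = 3.99e-05), SLC38A2 had 199 and 192 FPKM with 100 nM and 200.1 and 205 FPKM with solvent (1.29, adjusted p = 3.99e-05), and SP1 had 23.1 and 22.02 FPKM with 100 nM and 24.8 and 24.01 FPKM with solvent (1.26, adjusted p = 0.000162). CCNE2 stood above solvent at 24 h, with 52.5 and 59.7 FPKM with 100 nM and 39.2 and 32.8 FPKM with solvent at 24 h (1.95, adjusted p = 0.000162). In the replisome list 23 of 49 genes had a higher effect at 24 h, and in the immediate early list 11 of 18. CDK1 stayed low, at 33.99 and 33.3 FPKM with 100 nM and 62.3 and 61.5 FPKM with solvent at 24 h, with a smaller decrease than at 16 h (0.45, adjusted p = 0.00906), and for JUN a difference between times was not detected (0.15, adjusted p = 0.276). Histone genes stood higher still at 24 h: HIST1H2BK had 43.8 and 39.6 FPKM with 100 nM and 24.6 and 22.7 FPKM with solvent at 16 h, and 225 and 216 FPKM with 100 nM and 17.7 and 28.5 FPKM with solvent at 24 h (2.45, adjusted p = 0.00124). HIST2H2AA4 had 119.6 and 118 FPKM with 100 nM and 9.35 and 10.8 FPKM with solvent at 24 h (2.21, adjusted p = 0.000106), and 12 of 16 histone genes had a higher effect at 24 h. The increase of HIST1H2BK at 16 h alone lost its call without library 3, 5 or 6 (adjusted p up to 0.0806).

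**Figure D5:**
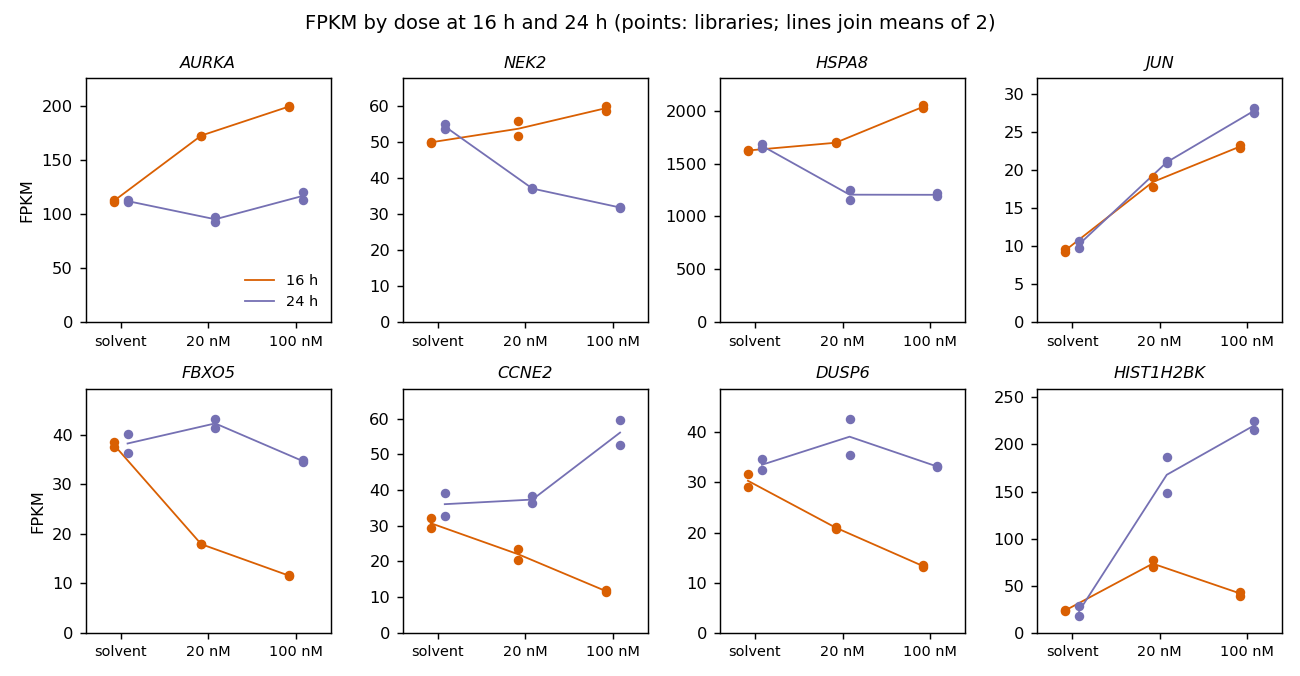
FPKM (vertical axes, each from 0) of 8 genes with solvent, 20 nM and 100 nM (left to right) at 16 h (orange) and 24 h (purple); points are libraries and lines join means of 2. FBXO5 and DUSP6 decline with dose at 16 h and lie near solvent at 24 h, JUN rises with dose at both times, AURKA and HSPA8 are highest with 100 nM at 16 h, and HIST1H2BK is highest with 100 nM at 24 h.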

How the data were processed

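Polyadenylated RNA of HCT116 cells was sequenced in paired reads from directional libraries, per the labels' protocols. The authors deposited FPKM per gene and library, rounded to 2 decimals, for 58174 genes; RSEM 1.2.28 and GRCh38 are named in the submitters' processing notes, and the aligner, annotation release and strand setting are not stated in the sources used here. FPKM are not counts, so no count model was used.

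GENCODE 29 (GRCh38) gave symbols, types and positions for 57836 genes by identifier, and positions are those of whole genes. Genes with at least 1 FPKM in at least 2 of 12 libraries (13458) were tested on log2(FPKM + 1), which understates changes of low genes, with limma 3.58.1 (R 4.3.3): 6 group means, a mean-dependent prior (6 residual and 2.98 prior degrees of freedom), two-sided tests and Benjamini-Hochberg adjustment over all tested genes, called under 0.05. The fit was also run on data simulated with its own estimated spread, which cannot show whether that spread or the scaling is right.

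Depth was read from genes with 1 annotated transcript of 500 to 1500 bases and values of 0.05 to 0.3 FPKM: per library, 1145 to 1311 values were fitted to whole fragments, 90.5% to 92.2% lying within 0.5 rounding steps plus 0.05 fragment of a whole number (25.2% to 31.7% would if evenly spread).

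Genes named were the 15 largest log2 changes per direction among called protein-coding genes with separate groups and at least 10 FPKM in the higher group, the 5 largest FPKM differences per direction, 5 per direction for the other comparisons, tubulins, and members of 56 hand-written role lists, with uncalled members shown as examples chosen after their values were seen. Members and lists were chosen with earlier results of these data known. Columns carry a running library number and not the labels' sample number, so libraries were not paired.

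Alternatives were pseudocounts of 0.1 and 0.5, no filter, a minimum of 5 FPKM, a common sum per library (TPM), a constant prior, median-of-ratios scaling, the contrast's libraries alone and each library left out in turn; rescaling to a common sum of nuclear genes was added after the data were seen. Promoter letters came from RefSeq windows for 9934 tested genes, and coding starts from GENCODE transcripts.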

Additional observations from a re-analysis of the deposited data

Results flagged for a closer look

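A test of the difference between times drew attention to 1 comparison: the effect of 100 nM at 24 h minus that at 16 h passed in 1368 genes. Only called protein-coding genes of at least 10 FPKM were ranked here, by log2 difference. The 5 largest toward a higher effect at 24 h were HIST1H2BK (2.45), HIST2H2AA4 (2.21), CCNE2 (1.95), HIST1H1C (1.83) and HIST1H2AC (1.82). The 5 largest toward a lower effect were AC126755.2 (-1.15), GAS2L3 (-1.12), NEK2 (-1.001), PALM (-0.99) and ANLN (-0.98). The noncoding genes BCYRN1 (-8.54) and SNORD17 (3.93) had larger differences, and SNORD17 lost its call whichever library was left out. HIST1H1C, a linker histone gene, had 7.46 and 7.13 FPKM with 100 nM and 3.78 and 5.8 FPKM with solvent at 16 h (adjusted p = 0.0468, lost without library 3, 4 or 5, up to 0.264), and 33.7 and 33.4 FPKM with 100 nM and 4.88 and 6.54 FPKM with solvent at 24 h. HIST1H2AC had 24.1 and 20.9 FPKM with 100 nM and 1.61 and 2.29 FPKM with solvent at 24 h. AC126755.2 had 81.03 and 75.1 FPKM with 100 nM and 43.2 and 46.2 FPKM with solvent at 16 h, and 34.3 and 36.1 FPKM with 100 nM and 51.3 and 40.1 FPKM with solvent at 24 h. PALM, paralemmin, had 12.1 and 10.4 FPKM with 100 nM and 8.82 and 10.1 FPKM with solvent at 16 h (adjusted p = 0.104), and 8.02 and 7.26 FPKM with 100 nM and 13.6 and 13.7 FPKM with solvent at 24 h. ANLN, anillin of the cytokinetic ring, had 89.1 and 104 FPKM with 100 nM and 93.2 and 80.9 FPKM with solvent at 16 h, overlapping ranges (adjusted p = 0.51), and 63 and 60.4 FPKM with 100 nM and 107 and 113 FPKM with solvent at 24 h; its difference between times lost its call without library 4, 6, 9, 10, 11 or 12 (adjusted p up to 0.073).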

How the results depend on the processing

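No paired analysis was possible because the columns carry a running library number and not the sample numbers of the labels. Counts of called genes stayed within 1.5 times the main count under the pseudocounts, filters and scalings for 100 nM against solvent (2466 without a filter to 3290, main 3205), for 100 nM against 20 nM (49 to 59, main 43) and for the difference between times (935 without a filter to 1453, main 1368). For 100 nM against solvent the count was 1620 with the 4 libraries alone and 1781 to 2007 with 1 library left out. For 100 nM against 20 nM it was 0 with 4 libraries alone, 28 with a constant prior and 15 to 18 with 1 left out, and for the difference between times 632 to 966 with 1 left out; fewer samples leave fewer degrees of freedom. Higher genes were 38.5% of calls against solvent (27.7% after rescaling to a common sum, 48.7% under median-of-ratios scaling), 13.95% against 20 nM (3.39% after rescaling, 24.1% without a filter) and 57.8% between times (37.8% after rescaling, 39.8% after rescaling nuclear genes). Of 496 named or listed genes called against solvent none changed sign in any alternative run, and 297 kept their call whichever library was left out. Depth limits genes of few fragments, and 2 libraries per group limit all comparisons.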

Other observations

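Called protein-coding genes were unevenly spread over level and length, as a description with no test. Over 4 equal classes of mean FPKM in 12 libraries, low to high, 3.81%, 7.65%, 11.7% and 16% of genes rose and 13.7%, 19.1%, 17.7% and 12.6% fell. Over 4 equal classes of longest annotated transcript, short to long, 11.7%, 11.3%, 9.81% and 6.21% rose and 12.8%, 15.8%, 17% and 17.5% fell. By chromosome, 5.36% of 373 tested protein-coding genes on X rose and 18.5% fell, and 15.9% of 113 on chromosome 21 rose and 10.6% fell. Of all tested protein-coding genes, 9.77% rose and 15.8% fell. The share that fell was larger than on X for chromosomes 17 (19.6%) and 20 (18.9%).

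Gene groups not described above had between 6.12% and 46.7% of their members called, beside 23.8% of all tested genes. Vesicle traffic genes had 5 of 32 lower (15.6%, near the 14.7% of all tested genes) and 1 higher (5 higher under median-of-ratios scaling, none without library 3, 4 or 6). Of those that fell, the recycling GTPase RAB11A had 169 and 169 FPKM with 100 nM and 221 and 214 FPKM with solvent (log2 change -0.36, SE 0.03, adjusted p = 0.000106). VPS35, the retromer core, had 48.2 and 49.2 FPKM with 100 nM and 68.02 and 69.6 FPKM with solvent (log2 change -0.49, SE 0.06, adjusted p = 0.000553). Mitochondrial ribosome genes had 10 of 48 higher and none lower, but 2 to 6 higher with a library left out and 2 after rescaling to a common sum; MRPL9 (0.21) kept its call in each omission. Cytosolic ribosome genes had 3 of 49 higher (9 under median-of-ratios scaling, 1 after rescaling to a common sum and 1 without library 3, 5 or 6), and proteasome genes 4 of 34 higher and 1 lower (1 or 2 higher with a library left out). Glycolysis genes had 2 of 21 higher and 4 lower (1 higher and at most 1 lower with a library left out). The hexokinase HK2, with 23.8 and 23.2 FPKM with 100 nM and 17.9 and 17.6 FPKM with solvent (log2 change 0.38, SE 0.04, adjusted p = 0.000489), kept its call in each omission. NF-kB genes had 3 of 16 lower and 1 higher (1 or 2 lower with a library left out, and none higher without library 3 or 5). TRiC chaperonin subunits had 2 of 8 higher (none without library 3, 5 or 6). Small RNA genes had 5 of 15 lower and 2 higher (1 higher without library 4, 5 or 6), and long noncoding RNAs had 5 of 27 lower and 3 higher (2 to 4 lower with a library left out, and 1 higher, MALAT1, without library 4 or 5). Of 92 tested genes whose longest transcript is under 300 bases, 3 rose and 8 fell.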
